A study of Mus musculus with 9 samples.

Results

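The transcripts described here encode subunits of the receptors for glutamate, GABA and glycine in embryonic mouse cortex. The embryos differed at HAR1984, one of the human accelerated regions (DNA elements conserved among vertebrates that changed unusually fast on the human lineage). Members were the genes whose symbol names such a subunit (Gria, Grin, Grik, Grm, Gabr, Gabbr, Glra or Glrb) and whose mean normalised count over all samples was at least 15. This left 42 genes of 39184 listed in both comparison tables. A further 7 genes with matching symbols lay under that minimum and were not analysed (Gabra6, Gabrr1, Gabrr2, Gabrr3, Glra1, Glra4 and Grm6). The gene just inside the minimum was Glra3, with a mean normalised count of 17.2, and the one just outside was Gabrr2, with 7.84.

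Deletion embryos (del/del, labelled CRISPR KO) lacked the element on both alleles, and knock-in embryos (Hs/Mm, labelled CRISPR KI) carried a human and a mouse allele. Control embryos (Mm/Mm) carried the mouse sequence on both. Each of the 3 groups had 3 RNA-seq libraries, called biological replicates in the design text. All are labelled E16.5, except that E16.6 stands in the tissue label of deletion replicate 3. The sources used here give no strain, sex, litter or pooling of embryos. The labels name the tissue cortex and the cell type neural progenitors. Mean normalised counts of 8 markers of cortical excitatory neurons ran from 2348 (Slc17a7) to 35817 (Neurod6). Those of 8 radial glia markers ran from 554 (Hes5) to 30936 (Vim), so the ranges overlap. Neuronal and radial glia transcripts are thus both part of what was measured.

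Ionotropic receptors are ion channels assembled from several subunits, and which subunits a neuron makes sets the speed, conductance and drug sensitivity of its synaptic currents. AMPA, NMDA and kainate receptors admit cations when they bind glutamate, while GABA-A and glycine receptors are chloride channels that can depolarise immature neurons because those hold much chloride. Metabotropic glutamate receptors and GABA-B receptors act through G proteins. Before birth the cortex is rich in the NMDA subunit gene Grin2b, in the GABA-A genes Gabra2, Gabra3 and Gabra5 and in the glycine receptor gene Glra2, and after birth Grin2a gains ground.

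In the deletion, 1 receptor gene passed an adjusted p of 0.05, as lower: Gabrg1, where 0.976% of all genes tested passed. Gabrg1 encodes the gamma-1 subunit of the GABA-A receptor and is best known from striatum, amygdala and other regions beneath the cortex. In the knock-in, 1 receptor gene passed, also as lower: Glra3, where 0.137% of all genes tested passed. Glra3 encodes an alpha subunit of the glycine receptor and has very few reads. Its call is lost when every gene with a statistic enters the adjustment. A test of knock-in minus deletion called 0 members. Nearly all other subunit transcripts were below control in the knock-in without passing the adjusted test, while in the deletion the members lay on both sides of control. The number of knock-in calls depends on whether the deposited p-values or the deposited test statistics are used, as given below. Values of single libraries were not used, because the deposited columns that claim to hold them equal the overall mean times a random number (252 of 252 member values in each table). Each log2 fold change below is therefore the deposited Wald statistic times its standard error (SE), tested genotype over control, with 3 libraries a group, and no spread between libraries can be shown.

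Subunit levels differed widely within families. Level here is the mean normalised count over all samples per kb of exon, with exon length taken over all annotated transcripts, so a gene with many long isoforms is placed too low. The highest levels were those of Gabbr1 (1525 per kb), the GABA-B subunit that binds GABA, Gria2 (1507 per kb), the AMPA subunit that limits calcium entry, and Grik5 (1432 per kb), a kainate subunit. Among AMPA genes Gria1 (1138) followed Gria2, ahead of Gria4 (342) and Gria3 (192).

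NMDA genes were led by Grin2b (445 per kb), with the obligatory subunit gene Grin1 at 143 and Grin2d at 73.4. Grin2a stood at 7.08 per kb, the lowest of the 7 NMDA genes, below Grin3a (63.7), Grin2c (21.2) and Grin3b (13.5). Kainate genes ran from Grik5 through Grik3 (905), Grik2 (287) and Grik1 (95.9) to Grik4 (50.4). The metabotropic genes ran from Grm5 (245), Grm2 (205) and Grm3 (137) through Grm4 (56.3) and Grm7 (52.8) to Grm8 (9.29). Among GABA-A alpha genes the highest were Gabra3 (367), Gabra2 (317) and Gabra5 (257). Below them in the GABA-A family stood Gabrb2 (198), Gabra4 (128), Gabrb1 (70.9) and Gabrg1 (38.4), and the lowest were Gabrd (23.4), Gabrg3 (22.0), Gabre (14.6) and Gabrq (12.9). Gabbr2, which Gabbr1 needs for signalling, had 231. Glra2 (803) and the shared beta subunit gene Glrb (338) were the high glycine receptor genes, with Glra3 at 1.87. These are single means with no error, so the order of close neighbours, such as Gabbr1 and Gria2, cannot be tested.

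**Figure D1:**
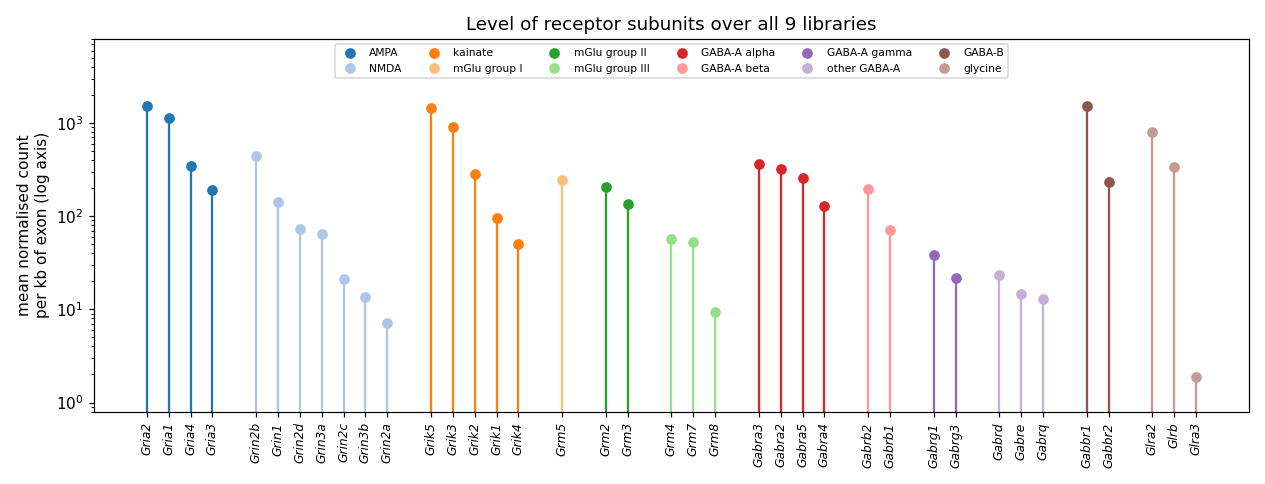
Level of 38 subunit genes, as mean normalised count over all samples per kb of exon on a log axis, grouped by receptor family and coloured by it. Each point is 1 gene and has no error bar; levels run from 1.87 for Glra3 to 1525 for Gabbr1.

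The first comparison asked what the loss of the element does to these transcripts. Gabrg1 (ENSMUSG00000001260, chr5:70751047-70842617 of mm10, minus strand) fell to 0.328 of control in deletion embryos, with a 95% interval of 0.216 to 0.497. On the log2 scale this was -1.61 (SE 0.31, Wald test of the authors' DESeq2 fit, Benjamini-Hochberg adjusted p = 1.60e-04). By p it ranked 18 among the 18952 genes tested. It was the only one of 41 members tested to pass an adjusted p of 0.05, and across all genes 0.976% passed (0.475% passed as lower). Glra3 had no adjusted p in the authors' deletion table and was not among the 41. In bulk RNA, fewer cells of a type and less RNA per cell cannot be told apart. Markers of striatum and subpallium, where Gabrg1 is expressed, were below control in 10 of 12 cases in the deletion, where 51.7% of all genes tested were. Their median was -1.11, but they were not uniform, and 2 passed as lower. Tac1 and Isl1 had -3.10 (SE 0.80) and -3.06 (SE 1.36), while Penk, Drd1, Adora2a and Ppp1r1b had -0.20, -0.03, 0.07 and 0.25. The part of these markers in the Gabrg1 value was not tested.

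The sequence before the Gabrg1 start is shown because Gabrg1 is the gene called in the deletion. It stands beside that of Gabra2, the next gene of the same cluster. Both windows are the 250 bases before the RefSeq start (GRCm38.p6), on the minus strand, from chr5:70842618-70842867 for Gabrg1 and chr5:71095850-71096099 for Gabra2. Capitals mark the letters TAATTA, a core that many homeodomain proteins recognise and that reads alike on both strands.
Gabrg1: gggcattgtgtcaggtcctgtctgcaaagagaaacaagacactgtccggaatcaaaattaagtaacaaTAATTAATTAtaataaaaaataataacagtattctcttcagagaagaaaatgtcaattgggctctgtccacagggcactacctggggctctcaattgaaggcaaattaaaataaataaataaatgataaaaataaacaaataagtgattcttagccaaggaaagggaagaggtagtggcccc
Gabra2: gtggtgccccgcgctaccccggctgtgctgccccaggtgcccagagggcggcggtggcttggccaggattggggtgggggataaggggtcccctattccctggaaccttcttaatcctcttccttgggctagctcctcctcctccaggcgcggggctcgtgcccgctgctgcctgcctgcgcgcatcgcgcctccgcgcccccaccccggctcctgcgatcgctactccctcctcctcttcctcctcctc
The Gabrg1 window holds TAATTA 2 times, overlapping, and the Gabra2 window 0 times. Of the 29 members with a RefSeq window, 1 held these letters, Gabrg1. That is 3.45% of the members, no more than the 5.65% of 27025 genes. Gabrg1 also had the lowest share of G and C among the 29 members, 35.6%, where Gabra2 had 70.0% and the median member 62.4%. The match is a description of letters and says nothing of binding. TAATTA was chosen after values were seen, so its standing in Gabrg1 alone among these members carries no weight.

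A further 7 members had an unadjusted p under 0.05 in the deletion without passing the adjusted test. Among them were Grm8 (-1.01, SE 0.31, adjusted p = 0.0801) and Grm4 (-0.72, SE 0.25, adjusted p = 0.180), presynaptic glutamate receptors that curb transmitter release, and 4 GABA-A genes. The GABA-A genes were Gabra2 (-0.69, SE 0.26), Gabra5 (-0.46, SE 0.21), Gabrq (-0.85, SE 0.35) and Gabre (-0.72, SE 0.32), with adjusted p of 0.237, 0.437, 0.310 and 0.381. Gabrq and Gabre encode the rare theta and epsilon subunits, found mainly in hypothalamus and brainstem. With Gabrg1, 8 of the 41 members tested were lower at that level, 19.5%, where 4.31% of all genes tested were. None of the 41 was higher at that level, where 5.19% of all genes were.

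Most other members had deletion values that did not pass at either level. The median of the 41 was -0.03 against -0.01 over all genes tested, and 24 of 41 were below control where 51.7% of all genes were. AMPA genes lay between -0.06 (Gria1) and 0.13 (Gria2), with Gria3 at -0.00 and Gria4 at 0.09. Kainate genes lay between -0.26 (Grik4) and 0.09 (Grik5), with Grik1 at -0.03, Grik2 at 0.07 and Grik3 at 0.01. The 7 NMDA genes ran from -0.23 (Grin3a, SE 0.31) to 0.32 (Grin2b, SE 0.23). Of the rest of them, Grin1 had -0.05, Grin2a 0.09, Grin2c 0.10, Grin2d -0.02 and Grin3b 0.09.

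Other metabotropic genes had positive values in the deletion, 0.30 for Grm2, 0.20 for Grm3, 0.07 for Grm7 and 0.01 for Grm5, with SEs from 0.24 to 0.29. GABA-B genes had -0.07 (Gabbr1, SE 0.11) and 0.10 (Gabbr2, SE 0.25), and glycine receptor genes -0.02 (Glra2, SE 0.18) and 0.03 (Glrb, SE 0.10). Glra3 had -0.93 (SE 0.58). Among the other GABA-A genes, Gabra3 and Gabra4 had -0.28 and -0.14, Gabrb1 and Gabrb2 had -0.17 and 0.22, and Gabrg3 and Gabrd had -0.17 and 0.29. The deletion members whose 95% interval excluded control were thus GABA-A and metabotropic genes, while the interval of every AMPA, NMDA and kainate gene included control.

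**Figure D2:**
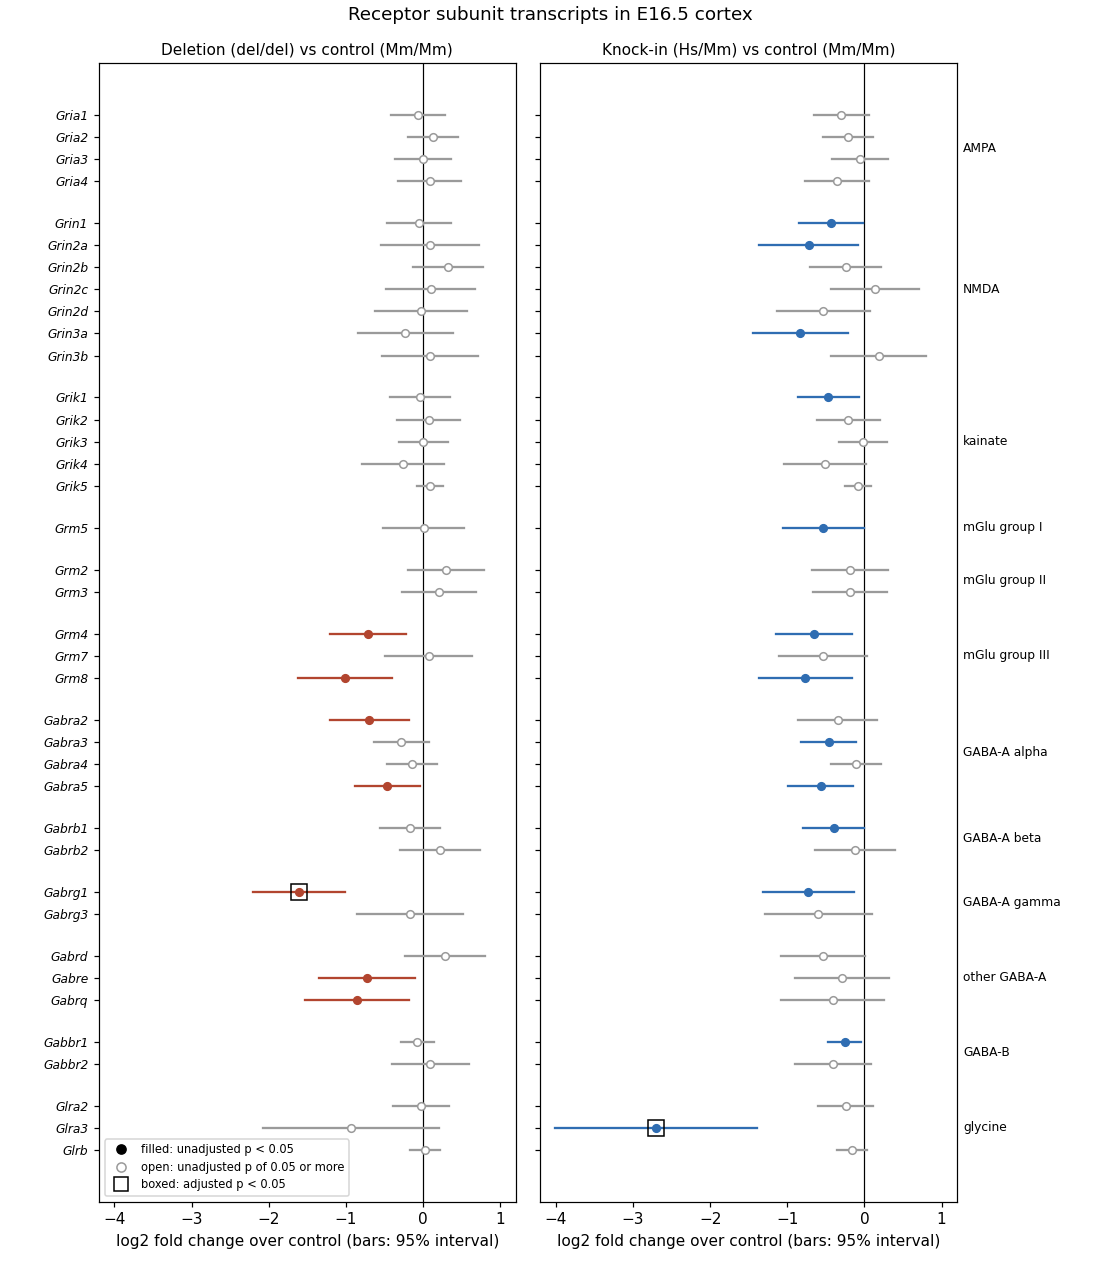
Log2 fold change over control of 38 subunit genes in the deletion (left) and the knock-in (right), by family, with 95% intervals (1.96 SE, 3 libraries a group). Filled points have an unadjusted p under 0.05 and boxes an adjusted p under 0.05: 7 of those plotted are filled and Gabrg1 is boxed in the deletion, and 13 are filled and Glra3 is boxed in the knock-in.

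The second comparison asked what a human allele does. Glra3 (ENSMUSG00000038257, chr8:55940460-56130070 of mm10, plus strand) fell to 0.154 of control in knock-in embryos (95% interval 0.0622 to 0.379). On the log2 scale this was -2.70 (SE 0.67, Wald test of the authors' DESeq2 fit, adjusted p = 0.0442), the 1 call among 42 members tested, where 0.137% of all 21222 genes tested passed and 0.0471% passed as lower. Its mean normalised count of 17.2 keeps Glra3 out of an adjustment over genes with a mean of at least 50, and its adjusted p is 0.0807 when every gene with a statistic enters the adjustment. Glra3 is known from spinal cord and retina, where it mediates glycinergic inhibition.

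The Glra3 window of 250 bases before the RefSeq start is chr8:55940168-55940417 of GRCm38.p6, on the plus strand. It is shown because Glra3 is the gene called in the knock-in, with the letters CAGCTG, an E-box core, in capitals.
Glra3: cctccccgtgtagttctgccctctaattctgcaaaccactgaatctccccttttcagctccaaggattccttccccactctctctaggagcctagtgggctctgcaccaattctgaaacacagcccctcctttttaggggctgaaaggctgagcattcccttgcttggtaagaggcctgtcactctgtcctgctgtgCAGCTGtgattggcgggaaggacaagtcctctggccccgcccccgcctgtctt
Of the 29 members with a RefSeq window, 1 held CAGCTG, Glra3. That is 3.45% of the members, against 14.7% of 27025 genes. Of the other letters searched on both strands, TGACAG stood in 20.7% of these members and 18.0% of genes. Glra3 was among the members with TGACAG, which is not in capitals above. GATTGA stood in 10.3% of members and 7.33% of genes. TGACGTCA stood in 0 members and 1.77% of genes. Matches may overlap, and they describe letters only. The motifs were chosen after values were seen, so CAGCTG standing in Glra3 alone among these members carries no weight.

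Most other members were below control in the knock-in without passing the test. Of the 42, 40 were below control, where 49.0% of all genes tested were. Their median was -0.39, where the median over all genes tested was 0.00 and the middle 50% of genes lay between -0.12 and 0.12. At an unadjusted p under 0.05, 15 members were lower and 0 higher, 35.7% of the members, where 3.39% of all genes tested were lower and 3.53% higher. The members' errors were larger than usual, with a median SE of 0.25 against 0.16 over all genes tested. Subunit genes are expressed together in neurons, so 40 genes below control are not 40 separate observations, and the 3 knock-in and 3 control libraries behind them are the same for every gene. Beside this, 13 of 14 interneuron markers were below control in the knock-in (median -0.50) and 6 of 8 excitatory neuron markers above it (median 0.08), and their part in the receptor values was not tested.

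Of the 7 NMDA genes, 5 were below control in the knock-in. Grin3a, whose subunit lowers calcium entry and is prominent in early development, had -0.83 (SE 0.32, adjusted p = 0.450), and Grin2a had -0.72 (SE 0.33, adjusted p = 0.620). Grin1, which every NMDA receptor needs, had -0.44 (SE 0.21, adjusted p = 0.683), Grin2d -0.53 (SE 0.31) and Grin2b -0.24 (SE 0.23). Grin2c (0.14, SE 0.29) and Grin3b (0.19, SE 0.31) were the 2 members above control, both at low levels, and 32.1% of the exon bases of Grin3b overlap the gene Tmem259 on the opposite strand. No source used here says whether counting used strand, so the value of Grin3b is uncertain, and so to a lesser degree are those of Grin1, Grin2d and Grm2, of whose exon bases 13.5%, 9.66% and 9.60% overlap antisense genes. The same holds for Gabra5, with 4.98%.

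AMPA and kainate genes were all below control in the knock-in, and 1 of them, Grik1, had an unadjusted p under 0.05. Gria1, Gria2, Gria3 and Gria4 had -0.30, -0.21, -0.05 and -0.35, with SEs from 0.17 to 0.21. Grik1, a kainate subunit gene typical of interneurons, had -0.47 (SE 0.20, adjusted p = 0.589) and Grik4 had -0.52 (SE 0.27). The abundant kainate genes Grik2, Grik3 and Grik5 had -0.21, -0.02 and -0.08. The 95% interval of Grik5 spans 0.843 to 1.06 of control.

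Of the metabotropic glutamate receptor genes, Grm8 had -0.77 (SE 0.31, adjusted p = 0.50), Grm4 -0.65 (SE 0.25, adjusted p = 0.463) and Grm7 -0.54 (SE 0.29). Grm5, which couples to calcium release, had -0.53 (SE 0.27, adjusted p = 0.716), and Grm2 and Grm3 had -0.19 (SE 0.25) and -0.18 (SE 0.24). All 7 metabotropic members were below control.

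All 14 GABA-A members and both GABA-B members were below control in the knock-in. The GABA-A genes with an unadjusted p under 0.05 included Gabrg1 (-0.73, SE 0.30), Gabra5 (-0.56, SE 0.22), Gabra3 (-0.47, SE 0.18) and Gabrb1 (-0.40, SE 0.20). Their adjusted p ran from 0.456 for Gabra5 to 0.719 for Gabrb1. Gabra5 directs receptors outside synapses. Gabrg3, Gabrd, Gabrq, Gabra2 and Gabre had -0.60, -0.54, -0.41, -0.34 and -0.29, and Gabrb2 and Gabra4 had -0.12 and -0.11. Gabbr1 had the smallest error of those with an unadjusted p under 0.05, at -0.26 (SE 0.11, adjusted p = 0.568), and Gabbr2, its signalling partner, had -0.41 (SE 0.25). The glycine receptor genes Glra2 and Glrb had -0.25 (SE 0.18) and -0.16 (SE 0.10).

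**Figure D3:**
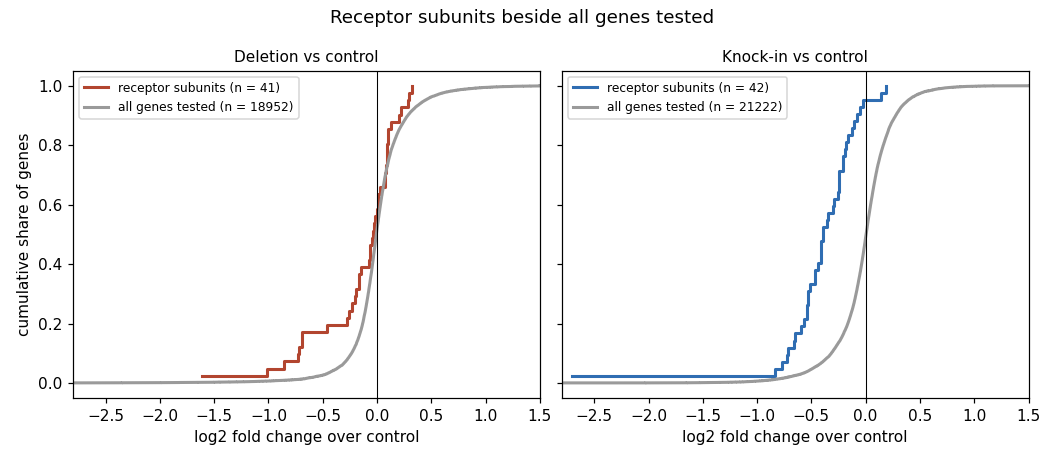
Cumulative share of genes against log2 fold change over control, for the receptor subunits (coloured) and all genes tested (grey), in the deletion (left) and the knock-in (right). The knock-in members lie left of all genes, with a median of -0.39 against 0.00, and the deletion members have a median of -0.03 against -0.01; axes are cut at -2.8 and 1.5, which leaves out no member.

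The deposited p-values of the knock-in table disagree with the deposited statistics for all members that would be called from them. In the authors' deposited table, 11 of the 42 members have an adjusted p under 0.05 in the knock-in, where 4.38% of all genes do. Among them are Glra3, Grin3a, Gabra5, Grm4, Gabra3, Grm8, Gabrg1, Gabbr1 and Grik1. For all 11, the deposited p is 1000 times smaller than the 2-sided normal p of the deposited Wald statistic. Gabbr1 is an example, with 1.77e-05 in the authors' deposited table, where its own statistic gives 0.0177. Recomputed, these 11 are the members with the smallest p, beginning with Glra3 at 4.84e-05, and the first member left as it was, Grin2a, has 0.0279. Among all knock-in genes, 930 p-values disagree with their statistic, 923 of them by this factor. Among deletion p-values 0 members are affected. The adjusted p in the authors' deposited table gives 1 deletion call, Gabrg1, where 1.03% of all genes have one under 0.05.

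Gabra3 also has a changed sign. The authors' deposited table lists its knock-in log2 fold change as 0.47, while its statistic times its SE is -0.47. The other 41 members have the same log2 fold change by both routes, and so do all 42 in the deletion. Of the authors' shorter lists of selected genes, that of the deletion holds Gabrg1 and that of the knock-in Glra3, and neither holds another member.

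**Figure D4:**
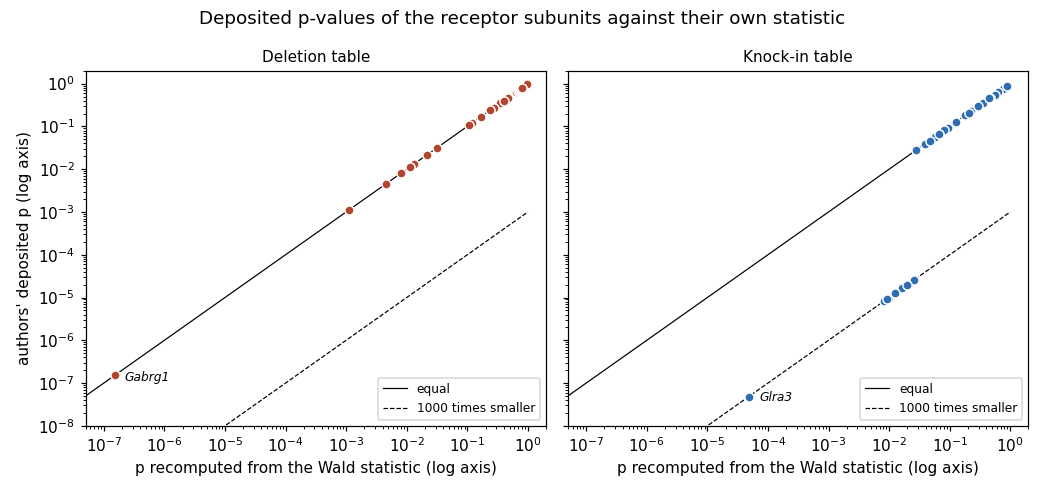
Deposited p against the p recomputed from the deposited Wald statistic for the 42 subunit genes, on log axes, in the deletion table (left) and the knock-in table (right). Points on the solid line agree; the 11 knock-in points on the dashed line, from Glra3 (4.84e-08 against 4.84e-05) upwards, are 1000 times smaller than their statistic gives.

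Many GABA-A genes sit in chromosomal clusters left by ancient duplications, and each cluster described here holds at least an alpha gene. On chromosome 5 the order is Gabrg1, Gabra2, Gabra4 and Gabrb1 within 1400 kb. The deletion values ran -1.61, -0.69, -0.14 and -0.17 in that order, and the knock-in values -0.73, -0.34, -0.11 and -0.40. The lowest deletion values of the cluster were thus those of 2 neighbours, 114979 bases apart, while Gabra4 and Gabrb1, which begin head to head, had 95% intervals that included control. On the X chromosome Gabre (-0.72) and Gabrq (-0.85) had low deletion values and Gabra3, which lies between them, had -0.28 (SE 0.18). On chromosome 7, Gabrg3 and Gabra5 had -0.17 and -0.46 in the deletion and -0.60 and -0.56 in the knock-in. The difference between genes of a cluster was not tested.

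**Figure D5:**
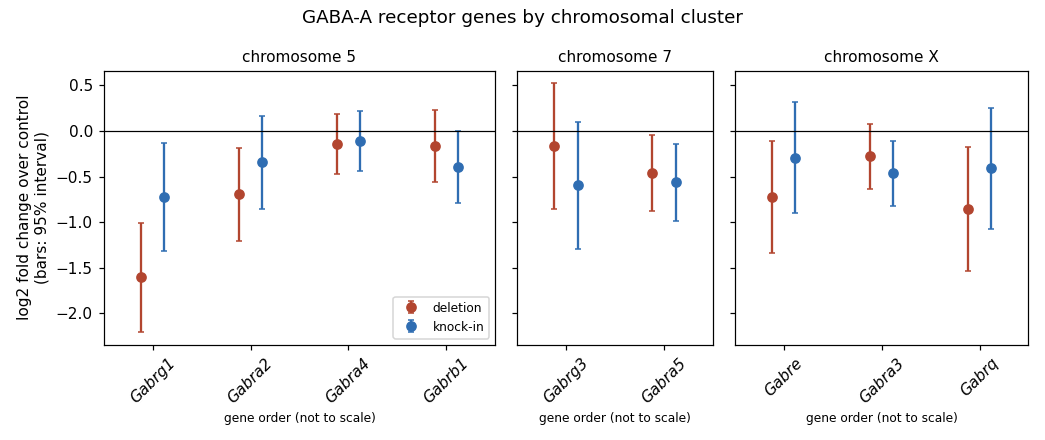
Log2 fold change over control, with 95% intervals (1.96 SE), of GABA-A genes in 3 chromosomal clusters, in gene order and not to scale; red points are the deletion and blue points the knock-in. On chromosome 5 Gabrg1 and Gabra2 are lowest in the deletion (-1.61 and -0.69), and Gabra4 and Gabrb1 have intervals that include control (-0.14 and -0.17).

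Both comparisons use the same control libraries, so a low value in both is not found independently. Side by side, Gabrg1 had -0.73 in the knock-in and -1.61 in the deletion, and Gabra5 had -0.56 and -0.46. Grm8 had -0.77 in the knock-in and -1.01 in the deletion, and Grm4 had -0.65 and -0.72. A test of knock-in minus deletion called 0 of 41 members at an adjusted p of 0.05, and 1 of 18928 genes (0.00528%). At an unadjusted p under 0.05 it gave 1 member lower in the knock-in, Gabrd (1.02% of all genes), and 1 higher, Gabrg1 (0.977% of all genes). Gabrd, which encodes the delta subunit of receptors outside synapses, differed by -0.82 (95% interval -1.58 to -0.07), and Gabrg1 by 0.88 (0.04 to 1.72). Glra3 was not among the 41, having no adjusted p in the deletion table. Its value in knock-in minus deletion was -1.77 (95% interval -3.50 to -0.04). In 31 of 41 members the knock-in value was the lower one, where 47.8% of all genes had that order. The SE of this difference ignores that the controls are shared, which makes it too large. With a covariance of 0.5 times the product of the SEs, 10 of the 41 members were lower in the knock-in at an unadjusted p under 0.05 and 1 was higher, where 4.80% of all genes were lower and 5.51% higher. The smallest adjusted p of a member was then 0.213, so again 0 members passed, against 9 of all genes.

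Subunits were also grouped by lists of when each is thought to be prominent. Of the 7 genes listed as early, 7 were below control in the knock-in, with a median of -0.39, and 6 in the deletion, with a median of -0.23. Among these 7 were Grin2b, Grin3a, Gabra2, Gabra3, Gabra5 and Glra2. The level of Grin3a here (63.7 per kb) was below those of Grin2b, Grin1 and Grin2d. Of the 4 measured genes that gain after birth, among them Grin2a, Grin2c and Gabrd, 3 were below control in the knock-in (median -0.60) and 1 in the deletion (median 0.10). Grik1, Grin2d and Gria4, which interneurons express strongly, had a median of -0.47 in the knock-in and -0.02 in the deletion. None of these 14 genes passed in either comparison. Of all genes tested, 0.137% passed in the knock-in and 0.976% in the deletion, so this count says little about the lists. Below control were 49.0% of all genes tested in the knock-in and 51.7% in the deletion.

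Of 60 receptor partner and transmitter genes tested, 0 passed the threshold in either comparison. Of all genes tested, 0.137% passed in the knock-in and 0.976% in the deletion, so 0 of 60 says little about these genes. For the lists that follow, 49.0% of all genes tested were below control in the knock-in and 51.7% in the deletion. Of the 15 auxiliary and delta-type glutamate receptor genes, 13 were below control in the knock-in (median -0.16) and 9 in the deletion (median -0.02). The delta receptor gene Grid1 had -0.59 (SE 0.24) in the knock-in, and the AMPA receptor partners Cacng2 and Shisa9 had -0.41 (SE 0.19) and -0.37 (SE 0.18). Cnih3, which escorts AMPA receptors, had 0.20 (SE 0.10, adjusted p = 0.514) in the deletion. Of the 18 scaffold genes of excitatory synapses, 15 were below control in the knock-in (median -0.23) and 7 in the deletion (median 0.02). In knock-in embryos the scaffold genes Grip2, Pick1 and Dlg4 had -0.39, -0.23 and -0.19, with adjusted p from 0.661 to 0.717.

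Of the 12 partners of inhibitory receptors, 10 were below control in the knock-in (median -0.14) and 7 in the deletion (median -0.04). Slc12a5, which extrudes chloride and makes GABA inhibitory, had a knock-in value of -0.78 (SE 0.39, adjusted p = 0.710) and a deletion value of -0.48 (SE 0.39). Shisa7, a GABA-A receptor partner, had -0.50 (SE 0.20) in the knock-in, and Kctd8, a GABA-B partner, -0.45 (SE 0.18) in the deletion. Gphn, the scaffold gephyrin, had a knock-in value of -0.15 (SE 0.12) and a deletion value of -0.10 (SE 0.12).

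Most genes for making and moving the transmitters were below control, 13 of 15 tested in the knock-in (median -0.19) and 13 of 15 in the deletion (median -0.26). Gad1 and Gad2, which make GABA, had -0.67 and -0.67 in the knock-in and -0.60 and -0.69 in the deletion, with adjusted p from 0.112 to 0.393. The authors' deposited table lists 1.67 for Gad1 and -1.67 for Gad2 in the knock-in, which their statistics do not give. Slc32a1, the vesicular GABA transporter gene, had -0.52 in the knock-in and -0.63 in the deletion. The glutamate transporter gene Slc1a2 had -0.45 and -0.44, and Abat, which breaks GABA down, had -0.27 and -0.40. Slc17a6, a vesicular glutamate transporter gene, had -0.08 and -0.26.

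Marker lists of other cells were read in the same fits. Of 14 interneuron markers, 13 were below control in the knock-in (range -1.23 to 0.10, 0 past the threshold) and 10 in the deletion (range -1.98 to 0.31, 4 lower past it). Gad1, Gad2 and Slc32a1 stand in this list and in that of transmitter genes. These counts rest on the statistics, and as with Gad1 and Gad2 the deposited fold changes of some Dlx genes differ. For the knock-in, 1.55 is deposited for Dlx1 and 0.47 for Dlx2, where their statistics give -0.55 and -0.47. For the deletion, -1.77 is deposited for Dlx2 and -1.58 for Dlx5, where their statistics give -0.77 and -1.06. Of 12 markers of striatum and subpallium, where Gabrg1 is also expressed, 11 were below control in the knock-in (range -2.28 to 0.21) and 10 in the deletion (range -3.10 to 0.25, 2 lower past it). Of the 9 cortical excitatory neuron markers chosen, Bcl11b was not found under that symbol. The remaining markers were above control in 6 of 8 in the knock-in and 5 of 8 in the deletion. Radial glia markers, which are not neuronal, were above control in 8 of 8 in the knock-in and 2 of 8 in the deletion. Meningeal markers were above control in 8 of 8 in both (4 past the threshold in the deletion), endothelial in 7 of 7 (2 past it in the deletion) and microglial in 7 of 8. No marker that was found was at 0 in the tables, and summed levels per group were not used for want of library values. The part of these markers in the receptor values was not tested.

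A Y-linked gene, Eif2s3y, had a log2 fold change of -27.20 (SE 3.91, adjusted p = 3.58e-08) in knock-in embryos. In deletion embryos it had -1.26 (SE 3.73). Of the members, 5 lie on the X chromosome (Gria3, Gabre, Gabra3, Gabrq and Glra2). Without them the knock-in median was -0.40 and 14 members had an unadjusted p under 0.05, and in the deletion the median was -0.03 and 6 did. The part of sex in the other 37 genes was not tested.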

How the data were processed

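Per the labels' protocols, mRNA was captured from total cortex RNA. STAR 2.7.9a, Bowtie2 2.4.4, cutadapt and the builds mm10 and mm9 appear in the submitters' processing notes without roles. The counting tool and its annotation: not given in the sources used here. For each comparison the authors deposited, per the file headers, a log2 fold change with its SE, a Wald score from DESeq2, a raw p-value and a Benjamini-Hochberg adjusted p-value. The deposited baseMean is a signal, the mean normalised count over all samples. It summed to 44271455 over all genes. Library depths are unknown.

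Deposited columns headed FPKM hold no library values. Within a tolerance of 1e-09, 242196 of 242196 knock-in and 235530 of 235530 deletion values equal baseMean times R's normal draws with mean 1, SD 0.1 and seed 42, and 0 do with seed 43. They were not used.

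Log2 fold changes were the deposited statistic times SE. P-values were 2-sided normal p of the statistic, adjusted over the 21222 (knock-in) and 18952 (deletion) genes with a deposited adjusted p, with a threshold of 0.05. Log2 fold changes were called equal within a relative tolerance of 1e-06 and p within 1e-04 on the log10 scale. A change made alike to statistic, SE and fold change cannot be seen. Intervals are 1.96 SE. Knock-in minus deletion was divided by the root of the summed squared SEs. Positions and exon lengths came from GENCODE M21 (mm10), and sequences from RefSeq (GRCm38.p6), which held 29 of 42 members. Where a symbol stood on several lines, that of highest mean was taken (Pick1).

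Members and lists were chosen with earlier results of these data known, so counts of members are descriptions and carry no test. Members are named, and partner genes where an unadjusted p was under 0.05, except some that are not reported here by name and count only in totals. Gphn was added after its values were seen. The DNA motifs were chosen after values were seen too. The steps were tested on simulated data. Alternatives were other thresholds, other sets for adjustment, the deposited values, a minimum mean of 50 or none, centring on all genes, and leaving out chromosome X. Software was R 4.3.3, scipy 1.17.1, pandas 2.3.3, numpy 2.4.6, matplotlib 3.10.9 and Python 3.11.15.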

Additional observations from a re-analysis of the deposited data

How the results depend on the processing

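Calls from the receptor genes depended on which deposited column was read. In the knock-in, 11 members passed by the authors' deposited adjusted p, 1 by the statistic, and 0 at an adjusted p of 0.01, with adjustment over every gene with a statistic, or over genes whose mean normalised count reached 50. Gabra3 reversed in the knock-in by the authors' deposited table, to 0.466. In the deletion, 2 members passed at an adjusted p of 0.1 (Grm8 joined Gabrg1), and 1 under the other 4 settings. At an unadjusted p of 0.01 in place of 0.05, 5 of 42 members were lower in the knock-in, where 0.966% of all genes were, and 4 of 41 in the deletion, where 1.61% were, and 0 members were higher in either. Member medians ran from -0.398 to -0.354 for the knock-in and from -0.0404 to -0.0232 for the deletion over all settings. The test between genotypes called 0 members under all 4 settings. Leaving out the members on chromosome X was chosen after seeing the data. No paired analysis was possible because only comparisons, not library values, could be used, and for the same reason no replicate could be left out. The depth of single libraries is unknown, so the limit of detection for low genes such as Glra3 cannot be given.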
